A study of Mus musculus with 139 samples.

Results

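Acetylation of lysine 27 of histone H3 (H3K27ac) was mapped in mouse embryonic stem cells as a list of peaks before depletion of the RNA exosome (0 h) and a list after 4 h of it. Of the 16239 peaks listed at 0 h, 7601 overlapped a peak of the 4 h list by at least 1 bp and lay within 2 kb of either end of a protein-coding locus. These kept gene-proximal peaks made up 46.8% of the 0 h list (exact 95% binomial interval 46.0 to 47.6, covering counting error only). They were chosen by measured values, the positions of the 2 lists, so their being kept and their widths at both times are given as description with no test. RNA was not used to choose them and could be tested gene by gene.

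The cells were AID-FBEXOSC2 ESCs, a line in which EXOSC2, a subunit of the RNA exosome, is fused to an auxin-inducible degron. They grew adherent on gelatin in serum with LIF. Untreated cells were the 0 h group, and 0.5 mM IAA, an auxin that directs the tagged protein to degradation, was given for 4 or 20 h. All groups carry the tagged EXOSC2, and IAA-treated cells without the degron were not analysed here, so an effect of IAA itself and that of EXOSC2 loss cannot be told apart. Each RNA group held 2 libraries, and since the labels do not say whether they came from separate cultures, the p-values may measure technical spread only. The RNA tables used were total RNA depleted of ribosomal RNA at 0, 4 and 20 h, nascent RNA labelled for 10 min with 5-ethynyluridine at 0, 1, 2 and 4 h, and RNA of the insoluble nuclear fraction at 0 and 4 h, called chrRNP, which holds chromatin and poorly extracted RNA-protein material. The labels give separate untreated H3K27ac controls for 4 h and for 20 h, and the sources used here do not say which of them made the 0 h list. H3K27ac at 20 h was not analysed here.

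H3K27ac is laid down by the acetyltransferases p300 and CBP, is removed by histone deacetylases and is read by bromodomain proteins. It marks active promoters and active enhancers. At active promoters it usually flanks a nucleosome-depleted start site. The RNA exosome is the main 3'-to-5' RNA degradation machine of the nucleus and, among other substrates, degrades unstable RNAs transcribed upstream and antisense of active promoters.

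The promoters printed here show where the edge of the acetylated region lay relative to the start of genes whose peak changed most or whose RNA changed most. Each is the 200 bases before the RefSeq start (GRCm38.p6, the build also called mm10), written 5' to 3' along the gene's strand. Capitals mark 4 promoter motifs, read on either strand, so that the reverse complement is in capitals too. They are GGGCGG, which is the core of the GC box, then CCAAT, which the factor NF-Y binds, then CACGTG, which is an E-box, and lastly CCGGAAG, which is of the ETS type. The stretches of Btg2 (chr1:134079156-134079355, minus strand) and Nr4a1 (chr15:101266646-101266845, plus strand) lay wholly inside the peak at 4 h only. The 0 h peak of Nr4a1 began 74 bp before the start and so already covered the last part of its stretch. The stretches of Sde2 (chr1:180850951-180851150, plus strand) and Crebzf (chr7:90442581-90442780, plus strand) lay inside the peak at 0 h only.
Btg2: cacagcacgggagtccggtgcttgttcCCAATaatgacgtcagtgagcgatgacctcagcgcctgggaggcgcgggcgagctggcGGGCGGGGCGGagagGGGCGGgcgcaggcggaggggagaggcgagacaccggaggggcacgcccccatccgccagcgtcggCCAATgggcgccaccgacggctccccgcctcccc
Nr4a1: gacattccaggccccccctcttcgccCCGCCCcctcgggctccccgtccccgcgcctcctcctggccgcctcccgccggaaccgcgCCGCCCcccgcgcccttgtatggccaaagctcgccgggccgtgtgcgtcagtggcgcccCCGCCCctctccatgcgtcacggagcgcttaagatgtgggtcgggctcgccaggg
Sde2: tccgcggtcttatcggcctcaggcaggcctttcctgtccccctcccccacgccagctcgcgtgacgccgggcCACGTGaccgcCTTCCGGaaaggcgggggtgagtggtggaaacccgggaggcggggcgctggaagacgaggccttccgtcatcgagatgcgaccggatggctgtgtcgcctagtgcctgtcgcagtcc
Crebzf: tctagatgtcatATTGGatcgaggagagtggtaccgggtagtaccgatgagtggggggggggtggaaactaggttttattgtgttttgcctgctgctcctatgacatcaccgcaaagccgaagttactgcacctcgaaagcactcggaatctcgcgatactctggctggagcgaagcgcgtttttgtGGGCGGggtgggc

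A further 4 promoters lay inside the peak at both times. They are those of Mdm2 (chr10:117710759-117710958, minus strand), Ccng1 (chr11:40755287-40755486, minus strand), Phlda3 (chr1:135765885-135766084, plus strand) and Inhbb (chr1:119422249-119422448, minus strand). The first 3 stood beside genes with more RNA after IAA and the last beside a gene with less at 20 h, as the values further on show. The capitals mark the same motifs.
Mdm2: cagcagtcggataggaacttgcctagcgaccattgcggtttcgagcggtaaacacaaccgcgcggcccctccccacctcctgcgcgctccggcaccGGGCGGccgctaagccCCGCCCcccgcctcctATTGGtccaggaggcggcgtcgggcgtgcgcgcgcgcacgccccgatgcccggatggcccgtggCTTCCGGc
Ccng1: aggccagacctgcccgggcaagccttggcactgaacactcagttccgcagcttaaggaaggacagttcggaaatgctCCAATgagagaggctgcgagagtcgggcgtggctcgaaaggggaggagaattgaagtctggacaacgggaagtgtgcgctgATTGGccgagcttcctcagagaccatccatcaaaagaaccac
Phlda3: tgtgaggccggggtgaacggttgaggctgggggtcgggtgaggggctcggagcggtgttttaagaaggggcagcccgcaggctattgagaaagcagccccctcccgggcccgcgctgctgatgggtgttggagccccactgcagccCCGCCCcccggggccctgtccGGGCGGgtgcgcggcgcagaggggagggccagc
Inhbb: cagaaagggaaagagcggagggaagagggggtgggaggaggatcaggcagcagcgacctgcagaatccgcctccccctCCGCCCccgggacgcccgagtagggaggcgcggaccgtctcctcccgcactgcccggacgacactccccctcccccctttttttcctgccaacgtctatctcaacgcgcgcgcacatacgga

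Promoters beside kept peaks were rich in GC and CpG. Of the coding genes with a kept peak within 2 kb of their start, 5921 had a RefSeq promoter of 300 bases (250 before to 50 after the start). Their median GC content was 61.7% with a median of 23 CpG dinucleotides, against 53% and 6 in the promoters of 10311 other coding genes. GGGCGG, the core of the GC box, was present on either strand in 68.5% of them, in 35.7% of all 32851 promoters of the table and in 36.8% of the other coding genes. CCGGAAG, an ETS-type motif, was present in 23.6%, 8.86% and 5.94%. ATGGCGGC, the YY1-type motif, was present in 7.13%, 2.24% and 1.13%, CACGTG, the E-box, in 11.3%, 7.15% and 6.35%, and the palindromic motif of NRF1 in 2.77%, 0.971% and 0.582%. TATAAA went the other way, with 5.88% beside kept peaks, 13.6% of all promoters and 16.9% of the other coding genes. CCAAT differed little, with 39.7%, 37.4% and 38.1%. These matches describe letters in the window and not bound factors, and short GC-rich motifs follow base composition.

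The kept peaks lay mainly over gene starts. Of the 7601 peaks, 5739 were within 2 kb of a coding start, 310 near a gene's end only, and 1552 beside genes whose strand could not be matched to RefSeq. A gene end lay inside 5149 of them, 464 served a pair of divergent coding starts, and 1584 had 2 coding genes and 135 had 3 or more, so counts of genes are not counts of independent peaks. They stood beside 8069 of the 21807 coding genes of the expression table, of which 6784 had 1 kept peak, 1176 had 2 and 109 had 3 or more. The threshold of 2 kb fell between the peaks of Kcnh2 (1998 bp) and Fbxl22 (1999 bp) just inside it and those of Sos1 (2002 bp), Supt6 (2008 bp) and Bicral (2011 bp) just outside. The smallest overlap that counted as kept was 215 bp, beside Slc25a42, and the peak nearest to being kept was that beside Msc, whose nearest 4 h peak was 53 bp away. Among all gene-proximal peaks of the 0 h list 91.3% were kept (7601 of 8325, interval 90.7 to 91.9), and among distal ones 84.0% (6646 of 7914, interval 83.2 to 84.8). These intervals too cover counting error only, with no replicate list behind them, and the difference was not tested.

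Kept peaks kept most of their extent. The median peak had 95.9% of its 0 h length covered by the 4 h list, 7513 of the 7601 had at least 50% covered, 5363 at least 90%, and 2215 were covered wholly. Widths were compared over the 7223 peaks that overlapped a single 4 h peak that overlapped no other. A further 147 overlapped 2 or more 4 h peaks, and 233 shared a 4 h peak with another 0 h peak. The median width was 1202 bp at 0 h and 1278 bp at 4 h, and the mean 1267 and 1337 bp. The median log2 ratio of 4 h over 0 h width was 0.05, with quartiles of -0.10 and 0.23. At 4 h 4245 peaks were wider, 2963 narrower and 15 equal.

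**Figure D1:**
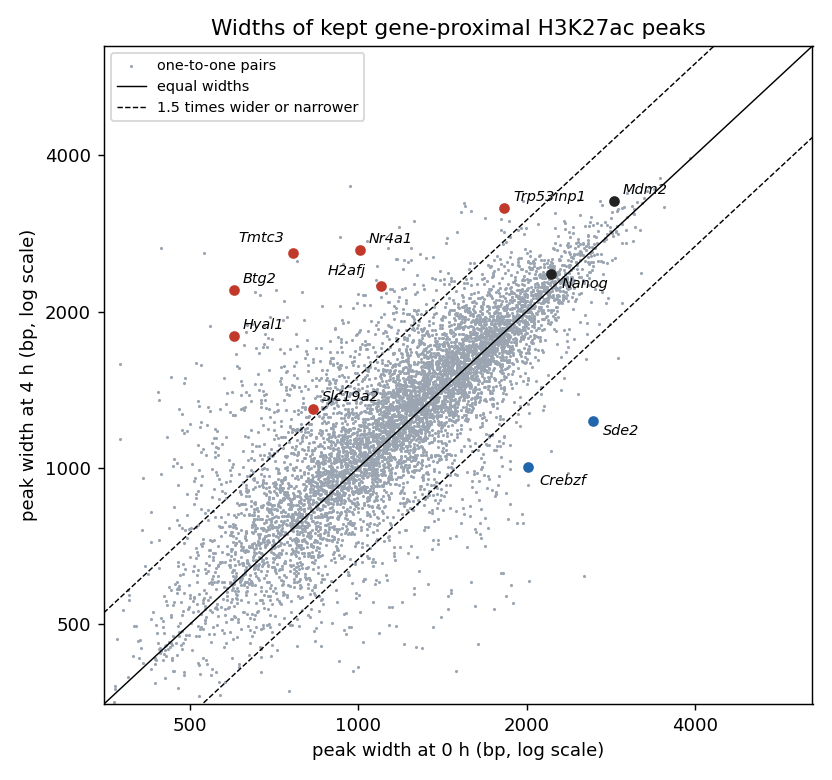
Width at 4 h against width at 0 h, in bp on log axes, of the 7223 one-to-one pairs of kept gene-proximal peaks (grey points). Named genes have red points where the peak beside them widened by at least 1.5 times, blue where it narrowed by as much and black where it did neither, and most points lie between the dashed lines.

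Peaks that widened by at least 1.5 times numbered 523 (7.24%) and those that narrowed by as much 236 (3.27%). Among the 5967 one-to-one pairs of kept distal peaks 690 (11.6%) widened and 267 (4.47%) narrowed. Within the gene-proximal peaks, those near a gene's end only widened in a larger share (35 of 287, 12.2%) than those at a start (378 of 5483, 6.89%), and those between divergent starts in a smaller one (23 of 438, 5.25%). In 4 equal groups by the mean of both widths, from narrow to broad, 8.58, 10.4, 6.48 and 3.54% widened, so that the broadest peaks had the smallest share. Among the 4794 one-to-one pairs of at least 1000 bp at 0 h, 142 widened and 191 narrowed, the opposite balance. Those pairs were chosen by their 0 h width alone, which by itself tilts the count toward narrowing. By the mean of both widths, 117 widened and 53 narrowed in the third group, and 64 and 11 in the broadest. The opposite balance is therefore not read as a trait of broad peaks. Each time had 1 list and no replicate list, and neither heights nor reads were in the lists, so no error can be put on a width and the sequencing depth behind the peaks is unknown. The 4 h list was also longer, with 20449 peaks against 16239 at 0 h. Whether a difference in peak calling between the lists had a part in the widening was not tested.

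Around the start site the peaks grew at both flanks by little. Over the 4763 one-to-one pairs whose start and strand were known, the median peak ran from 456 bp upstream to 791 bp downstream of the start at 0 h and from 495 to 821 bp at 4 h. The median edge moved outward by 8 bp upstream and 14 bp downstream. An outward move of over 200 bp was seen upstream in 594 pairs (12.5%) and downstream in 674 (14.2%). An inward move of over 200 bp was seen upstream in 334 pairs (7.01%) and downstream in 321 (6.74%). In widened peaks the median move was 324 bp upstream and 264 bp downstream, and in narrowed ones -288 and -195 bp. The start lay inside 3244 of these peaks at 0 h and 3205 at 4 h.

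**Figure D2:**
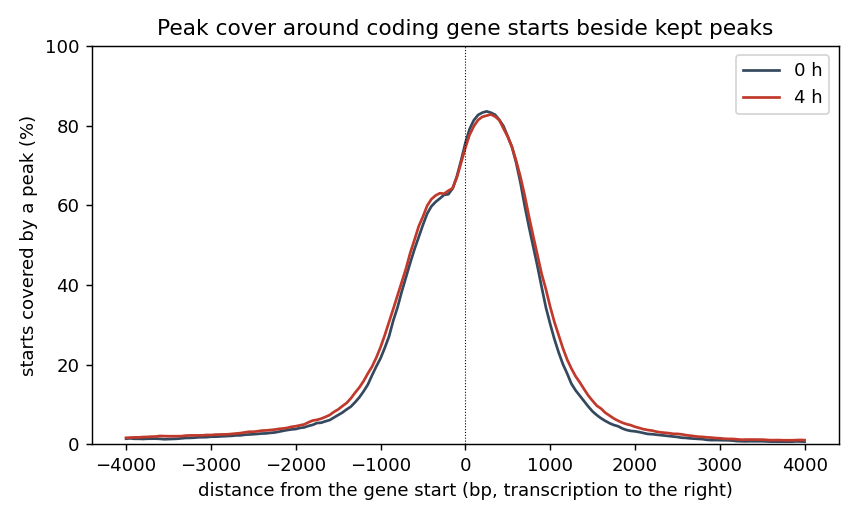
Share of 5921 coding gene starts beside kept peaks (vertical axis, %) that a peak of the 0 h or 4 h list covers at each distance from the start (bp, transcription to the right). The curves nearly coincide, with 83.6% of starts covered 250 bp downstream at 0 h and 82.8% 300 bp downstream at 4 h, and at 1000 bp downstream the cover was 30.2% at 0 h and 34.6% at 4 h.

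The largest widening among peaks of at least 1000 bp at both times stood beside the end of Dtnb, which encodes dystrobrevin beta, from 1034 to 2739 bp, and over the start of Nr4a1, an immediate-early nuclear receptor gene, from 1005 to 2630 bp (chr15:101266772-101267777 at 0 h). The peak of Nr4a1 ran from 74 bp upstream to 931 bp downstream of the start at 0 h and from 619 bp upstream to 2011 bp downstream at 4 h. Next came the peaks beside Ehd2 and Nop53 (1180 to 2912 bp) and Slc39a10, a zinc transporter gene (1258 to 2994 bp). Then came that near the end of Eif2b5, which encodes a subunit of a translation initiation factor (1131 to 2649 bp). Another peak, over the start of Eif2b5, ran from 629 bp before it to 823 bp past it at 0 h. That peak drew in to 435 and 692 bp at 4 h. Last came the peak beside Rbm34, which encodes an RNA-binding protein (1081 to 2453 bp). No rise in total RNA at 4 h was called for these genes, of which Ehd2 did not pass the filter. Nr4a1 was listed at 12.2 and 9.84 FPKM at 0 h and at 9.93 and 10.7 at 4 h, overlapping ranges (log2 change -0.08 ± 0.14 SE, adjusted p = 0.655, limma). FPKM are fragment counts scaled to transcript length and library size, and changes here and below are differences of mean log2(value + 1), with Benjamini-Hochberg adjustment over all genes tested. Slc39a10 was at 21.3 and 20.2 FPKM against 14.6 and 17.4 (-0.36, adjusted p = 0.0759), Rbm34 at 14.9 and 14.4 against 10.8 and 11.8 (-0.35, adjusted p = 0.082) and Dtnb at 5.99 and 5.50 against 5.04 and 4.80 (-0.19, adjusted p = 0.25).

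Among peaks of at least 1000 bp at both times, the largest narrowing was over Sde2, a gene of a DNA replication and splicing protein, where the peak went from 2625 bp (chr1:180849158-180851783) to 1231 bp. Its downstream edge drew back from 656 bp past the start to 265 bp before it, so the 200 bases printed for Sde2 were left outside. Crebzf, which encodes a bZIP transcription factor, went from 2016 bp (chr7:90442188-90444204) to 1003 bp, its upstream edge moving from 541 bp before to 462 bp past the start. Frrs1, a ferric reductase gene, went from 2919 to 1625 bp. Total RNA of Sde2 was 25.5 and 21.6 FPKM at 0 h and 13.5 and 17.2 at 4 h, a fall (-0.59 ± 0.15, adjusted p = 0.0384) that did not hold without either 0 h library (limma adjusted p = 0.203 without the first of them), and whose adjusted p ranged from 0.0268 to 0.203 over the alternatives. Crebzf had 20.7 and 18.6 FPKM against 15.7 and 17.8 (-0.22, adjusted p = 0.199), and Frrs1 12.8 and 13.6 against 12.9 and 13.0 (-0.02, adjusted p = 0.877).

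The broadest kept peaks changed little in width. The peak beside Eno1, which encodes the glycolytic enzyme enolase 1, was 3471 bp at 0 h and 3623 bp at 4 h, that beside Gdf3, a Nodal-related growth factor gene, 3311 and 3477 bp, and that over Gapdh and Ncapd2 3292 and 3411 bp. Total RNA of Eno1 was 46.8 and 43.7 FPKM at 0 h, 33 and 37.5 at 4 h and 11.5 and 11 at 20 h. Gdf3 had 46.3 and 45.7, then 36 and 41.4, then 11 and 8.55 FPKM. Both fell at 20 h (log2 change -1.92 and -2.13, limma adjusted p = 8.32e-05 and 9.7e-05, as deposited, and -1.0 and -1.22 after rescaling). Eno1 and Gapdh have near-identical copies elsewhere in the genome, and the sources used here do not say how reads of such copies were counted. Gapdh was listed at 0.686 and 1.03 FPKM in total RNA at 0 h but at 19.2 to 33.8 RPKM in nascent RNA at 0 and 4 h, so its listed total level is not read as low expression.

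Genes beside kept peaks were mostly expressed. Their median level in total RNA at 0 h was 8.88 and 8.25 FPKM in the 2 libraries, and 88.2% had a mean of at least 1 FPKM, against 19.0% of the 13216 coding genes beside no 0 h peak, whose median was 0. Genes with a kept peak at the start had medians of 9.83 and 9.10 FPKM, and those with a kept peak at the end only of 0.729 and 0.752 FPKM. The 522 genes beside lost peaks only had 4.66 and 4.22 FPKM. Across the 8069 genes the width at 0 h and the RNA level correlated weakly (Spearman 0.128, Pearson 0.124), as a description over genes of the same libraries. Of the 8069 genes 158 were listed at 0 in total RNA at 0 h.

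Markers of embryonic stem cells summed to 1925 to 1995 FPKM at 0 h, 1425 to 1710 at 4 h and 557 to 609 at 20 h over 10 genes, of which 9 stood beside kept peaks. Over the same times 12 fibroblast markers summed to at most 8.89 FPKM, 12 trophoblast and endoderm markers to 13.8 to 24.9 FPKM, and 9 neural markers to 9.06 to 9.51, 13.1 to 15.6 and 17.9 to 19.3 FPKM. In bulk RNA, fewer cells of a type and less RNA per cell cannot be told apart. The summed FPKM of a library was 481878 and 492306 at 0 h, 463744 and 476799 at 4 h and 333780 and 323866 at 20 h. The median log2 change of all 12461 genes tested in total RNA was -0.31 at 4 h and -0.76 at 20 h. In chrRNP that of all 14069 tested genes was 0.21 at 4 h. Calls were therefore also made after rescaling each library to the median ratio of its tested genes, which took the median of all genes at 4 h to 0.01, and the part of the lower totals in the falls was not tested.

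In total RNA at 4 h, 7221 of the 8069 genes beside kept peaks passed the filter of at least 1 FPKM in at least 2 libraries. At an adjusted p of 0.05, 139 of them rose (1.92%), where 4.47% of all tested genes and 2.17% of tested coding genes rose. The number that fell was 1924 (26.6%), where 21.2% of all and 23.9% of coding genes fell. The median change was -0.35, near that of all genes. After rescaling 326 rose and 201 fell, where 5.95% and 2.05% of all genes did. Genes that passed the filter only where they are high had to differ, so part of the rises was fixed by the filter. With a 0 h mean of at least 1 FPKM, 108 of 7092 genes beside kept peaks rose as deposited (1.52%) and 1924 fell. The falls hung on single libraries. Without the second 4 h library 3457 fell, without the first 4 h library 101, and without the first or the second 0 h library 10 and 44. The rises numbered 34 and 28 without the first or the second 0 h library, and 70 and 108 without the first or the second 4 h library.

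At 20 h 348 genes beside kept peaks rose (4.82%) and 5676 fell (78.6%), where 9.47% and 67.8% of all genes did. The median change was -0.86, and after rescaling 1784 rose and 2314 fell, where 27.5% and 27.8% of all genes did. In nascent RNA, given as reads scaled to gene span and library size (RPKM), 5134 genes passed the filter. At 4 h 70 rose and 17 fell, where 1.57% and 0.338% of all genes did. Without any 1 of the 4 nascent libraries at 0 and 4 h, a single gene beside a kept peak was still called, Mdm2, so the nascent values of other genes are given without a call. No such gene was called at 1 or 2 h (0 by limma, with 225 and 361 at an unadjusted p of 0.05), where 0.0451% and 0.0113% of all genes rose. In chrRNP 477 of 7420 genes rose and 44 fell, where 7.95% and 0.867% of all genes did. After rescaling 498 rose and 738 fell, where 8.71% and 8.31% of all genes did. Without the second chrRNP 0 h library 3525 rose, and the range without each of the others was 194 to 448.

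**Figure D3:**
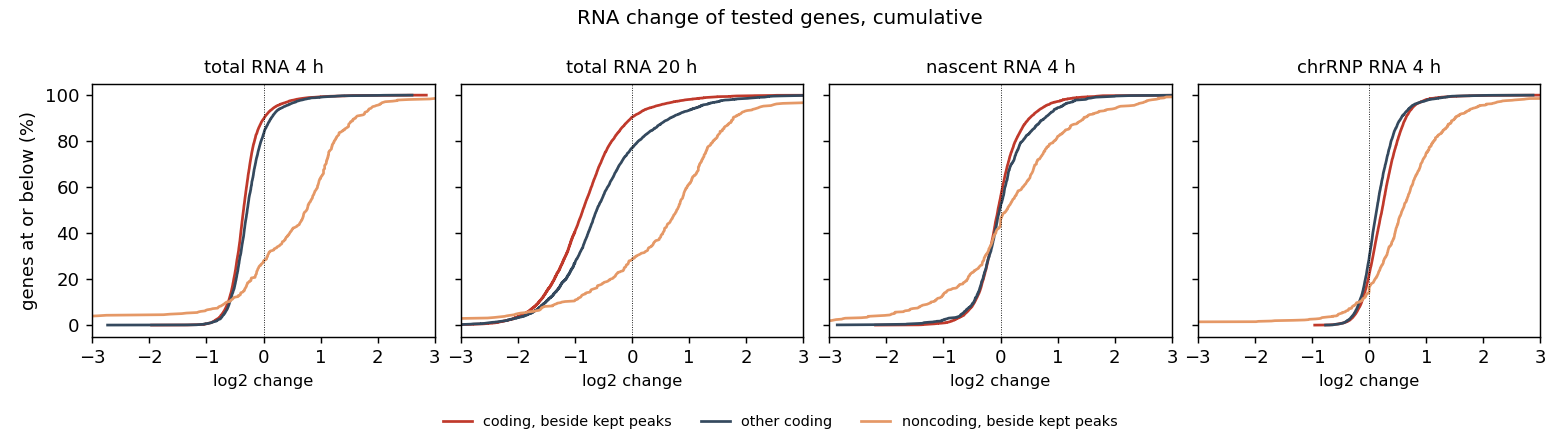
Cumulative share of tested genes (vertical axis, %) at or below each log2 change (horizontal axis) in 4 comparisons with 0 h, for coding genes beside kept peaks (red), other coding genes (blue) and noncoding genes beside kept peaks (orange). The red and blue curves lie close together in total RNA at 4 h, where the median of the red one was -0.35, and the orange curve includes genes that passed the filter only where they are high (in total RNA at 4 h the 198 of 419 with a 0 h mean of at least 1 FPKM had a median of -0.08).

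Among the genes that rose, the peak over Btg2, an antiproliferative gene and p53 target, widened 3.68 times. Its peak began 27 bp past the start at 0 h and 1620 bp before it at 4 h, growing from 599 bp (chr1:134078494-134079093) to 2202 bp. The added stretch holds the printed promoter of Btg2, with CCAAT 173 and 34 bases before the start and GGGCGG 115, 110 and 100 bases before it, counted from the RefSeq start, which lies 35 bp from the table's start used for the peak's edges. Total RNA of Btg2 was 6.47 and 4.65 FPKM at 0 h, 36.0 and 39.0 at 4 h and 37.3 and 35.2 at 20 h. Both later groups lay above the 0 h libraries (log2 change 2.56 ± 0.16 at 4 h, adjusted p = 0.00119, limma, and 2.52 at 20 h, adjusted p = 8.33e-05). In chrRNP it went from 2.48 and 4.07 to 23.8 and 26.9 FPKM (2.65 ± 0.17, adjusted p = 5.62e-06). In nascent RNA it had 1.68 and 0.945 RPKM at 0 h and 13 and 11 at 4 h.

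Tmtc3, which encodes an O-mannosyltransferase of the endoplasmic reticulum, and Hyal1, a hyaluronidase gene, had peaks that widened 3.41 and 3.00 times. The peak of Tmtc3 grew from 763 to 2598 bp, nearly all of it downstream, where the edge moved from 675 to 2488 bp past the start. That of Hyal1 grew from 598 to 1796 bp on both sides and lay before the start at both times. Total RNA of Tmtc3 was 7.37 and 8.16 FPKM at 0 h, 12.1 and 12.7 at 4 h and 27.6 and 28.6 at 20 h. It rose at 20 h (1.73 ± 0.11, limma adjusted p = 8.53e-05). Hyal1 rose at 4 h, from 0.715 and 0.613 to 4.77 and 6.49 FPKM (1.98 ± 0.17, adjusted p = 0.00444), and stood at 9.32 and 7.35 at 20 h. Both 0 h values of Hyal1 lay under the 1 FPKM of the filter, which it passed only through its later libraries. Its rise in total RNA was thus partly fixed by the filter. In chrRNP both rose, Tmtc3 from 6.04 and 6.56 to 13.7 and 15.4 FPKM (1.09, adjusted p = 0.000577) and Hyal1 from 0.766 and 1.1 to 9.04 and 8.52 FPKM (2.34, adjusted p = 3.08e-06).

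H2afj, which encodes an H2A variant, Slc19a2, a thiamine transporter gene, and Trp53inp1, a p53-induced gene of autophagy and apoptosis, also had widened peaks. They grew from 1099 to 2244 bp, from 830 to 1300 bp and from 1823 to 3167 bp. Total RNA of H2afj went from 16.3 and 12.2 FPKM to 50.9 and 59.1 at 4 h (1.89 ± 0.17, limma adjusted p = 0.00515). Slc19a2 went from 18.2 and 18.9 to 39.5 and 43.3 (1.12 ± 0.11, adjusted p = 0.0063). Trp53inp1 went from 17.0 and 16.6 to 37.1 and 45.8 and was at 78.7 and 73.8 FPKM at 20 h (1.25 ± 0.14 at 4 h, adjusted p = 0.00755, and 2.12 at 20 h). For all 3 genes the 4 h libraries lay above those of 0 h, and the calls held without each library in turn.

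Large rises also occurred beside peaks whose width changed by less than 1.5 times. The peak of Mdm2, the ubiquitin ligase gene of the p53 feedback loop, was 2867 bp at 0 h (chr10:117709507-117712374) and 3265 bp at 4 h. Total RNA of Mdm2 was 21.2 and 17.8 FPKM at 0 h, 76.7 and 90.8 at 4 h and 121 and 114 at 20 h (2.05 ± 0.14 and 2.53 ± 0.14, limma adjusted p = 0.0018 and 7.71e-05). Nascent RNA of Mdm2 went from 6.06 and 5.34 to 63.3 and 74.0 RPKM (3.38 ± 0.13, adjusted p = 0.0048). In chrRNP it went from 5.30 and 8.08 to 54.5 and 65.2 FPKM (3.00 ± 0.17, adjusted p = 3.08e-06). In each table the libraries of 0 h and 4 h were far apart. Sp6, a transcription factor gene, had a peak of 1113 and then 1334 bp and went from 1.16 and 1.24 to 5.99 and 6.84 FPKM in total RNA at 4 h (1.75 ± 0.12, adjusted p = 0.00132).

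Phlda3, a p53-induced inhibitor of AKT signalling, had a peak of 1415 bp (chr1:135765715-135767130) and then 1599 bp. Its total RNA went from 22.4 and 20.2 FPKM to 49.4 and 60.5 at 4 h (1.32 ± 0.14, limma adjusted p = 0.00692) and 57.2 and 54.5 at 20 h. Ccng1, which encodes cyclin G1, another p53 target, had a peak of 2050 bp (chr11:40754505-40756555) and then 2481 bp. Its total RNA went from 28.3 and 26.6 FPKM to 55.1 and 65.6 at 4 h (1.1 ± 0.13, adjusted p = 0.0099) and 70.9 and 64.4 at 20 h. The 4 h call on Ccng1 ended without either 0 h library, and its adjusted p ranged from 0.000617 to 0.0568 over the alternatives, the highest without the second 0 h library. Its chrRNP value rose from 19.7 and 21.9 to 65.7 and 80.9 FPKM (1.76 ± 0.14, adjusted p = 2.36e-05), and its nascent values were 3.35 and 1.22 RPKM at 0 h and 24.1 and 23.4 at 4 h. Ddit4, a stress-induced inhibitor of mTOR signalling, had a peak of 629 and then 926 bp and went from 6.37 and 6.41 to 17.4 and 23.5 FPKM (1.52 ± 0.15, adjusted p = 0.00633).

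As a group, 27 of 35 listed targets and regulators of p53 stood beside kept peaks. Their median width ratio was 1.22, and 5 of the 27 peaks widened by at least 1.5 times. In total RNA at 4 h 13 of 26 tested rose (Mdm2, Mdm4, Btg2, Ccng1, Trp53inp1, Sesn2, Gtse1, Bbc3, Phlda3, Eda2r, Polk, Ddit4 and Ppm1d) and Epha2 fell, with a median of 0.44 against -0.31 for all genes, of which 4.47% rose. In chrRNP 17 of 27 rose, with a median of 1.05, where 7.95% of all genes rose. At 20 h 13 rose and 5 fell (Sesn1, Bax, Gadd45a, Xpc and Trp53), where 9.47% and 67.8% of all genes did. The count at 4 h was 7 without either 0 h library and 17 after rescaling. The count in chrRNP was 13 without the second 4 h library and 21 without the second 0 h library, and the 20 h counts after rescaling were 22 and 2. In nascent RNA the median was 1.22 over 23 genes.

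**Figure D4:**
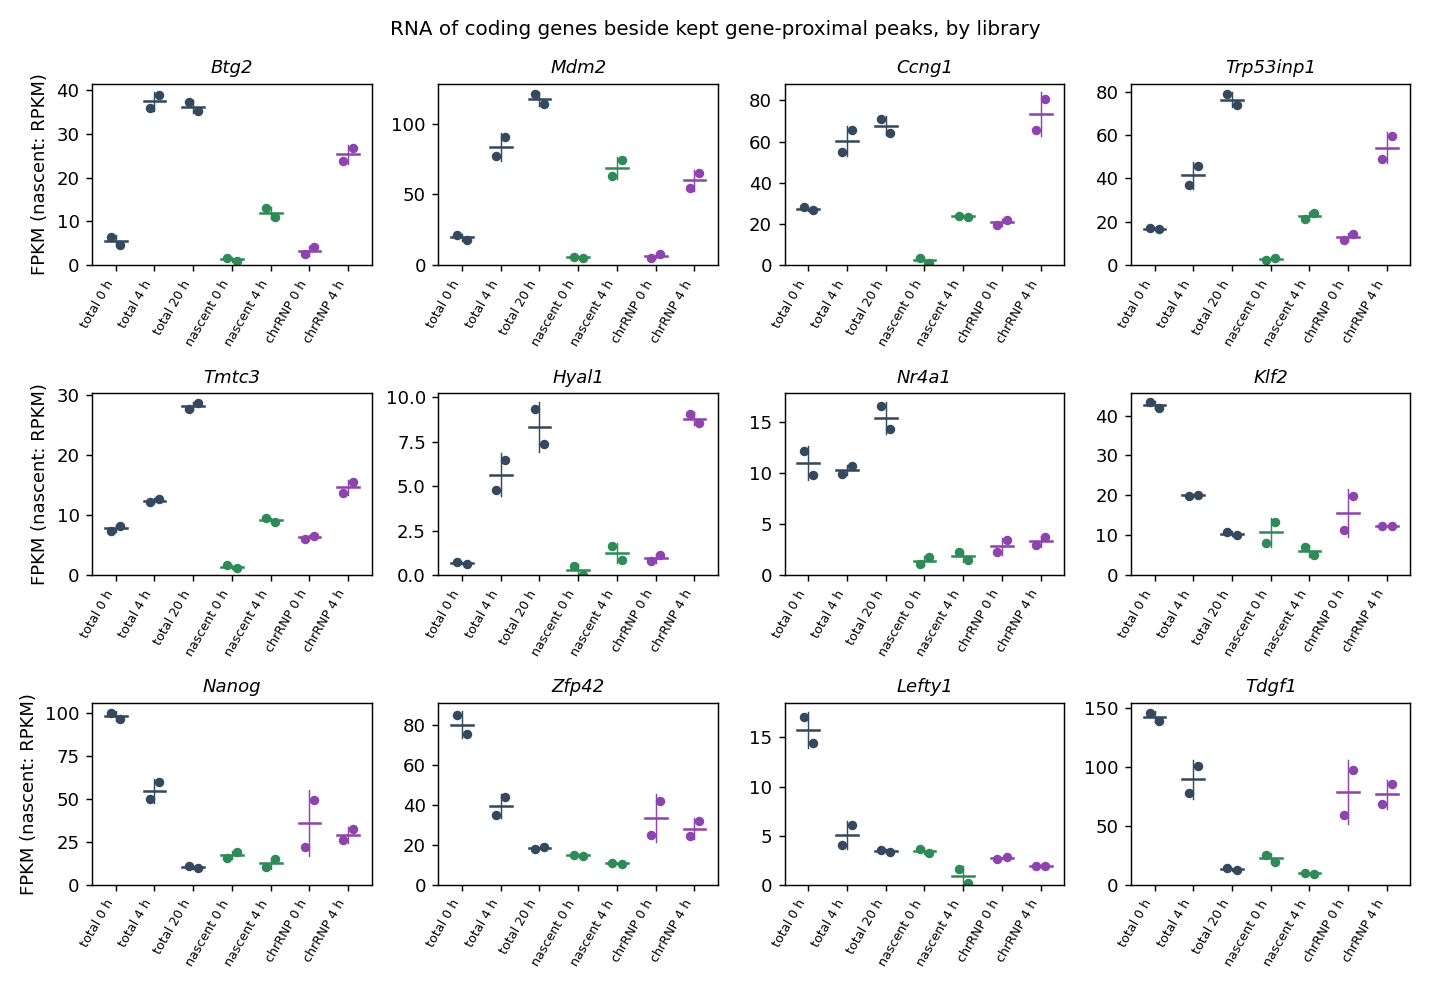
RNA level (vertical axis, FPKM, or RPKM for nascent RNA) of 12 coding genes beside kept peaks in each library (points) of total, nascent and chrRNP RNA at the times named below each group. Horizontal bars are group means and vertical lines the SD over 2 libraries, and total RNA of Btg2, Mdm2 and Trp53inp1 lies higher at 4 and 20 h than at 0 h while that of Klf2, Nanog and Lefty1 lies lower.

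The share of genes that rose differed with the change in width of the peak beside them. Beside widened peaks 26 of 476 tested genes rose in total RNA at 4 h (5.46%), beside peaks between the limits 103 of 6246 (1.65%), and beside narrowed peaks 1 of 224 (0.446%). Falls were seen in 18.3, 27.3 and 28.6%, and after rescaling in 2.31, 2.77 and 1.79%, where the order was gone. At 20 h 60 of 476 (12.6%), 4.24% and 2.68% rose, and in chrRNP 67 of 487 (13.8%), 379 of 6419 (5.90%) and 13 of 228 (5.70%). In nascent RNA 14 of 318 genes beside widened peaks (4.40%), 53 of 4449 (1.19%) and 0 of 153 rose by limma, the last with 19 at an unadjusted p of 0.05. Where the width ratio was 2 or more, 13 of 129 genes rose in total RNA at 4 h (10.1%) and 23 of 129 at 20 h (17.8%). These shares are descriptions with no test, since the widths carry no error and genes can share a peak.

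The order of widened above unchanged peaks was present in each fit of total and chrRNP RNA run. Rescaled, 12.0% and 4.02% rose in total RNA at 4 h. Without the first or second 0 h library it was 1.5 against 0.388% and 1.07 against 0.340%, and without the first or second 4 h library 2.54 against 0.851% and 3.82 against 1.33%. In chrRNP it was 53.4 against 47.1% without the second 0 h library and 8.83 against 3.01% without the first. In nascent RNA no call beside a widened peak was left without any 1 library, and 1 call, on Mdm2, was left beside the others. With the listed p53 targets left out, 22 of 471 genes beside widened peaks (4.67%) and 1.51% of those between rose in total RNA at 4 h, and 63 of 482 (13.1%) and 5.72% in chrRNP. Genes beside widened peaks had a lower median level at 0 h (6.95 and 6.51 FPKM against 9.01 and 8.37). Rises in total RNA at 4 h were also counted within 1 to 5, 5 to 20 and at least 20 FPKM at 0 h. Beside widened peaks 9 of 141 (6.38%), 11 of 203 (5.42%) and 1 of 114 (0.877%) rose. Beside those between, 48 of 1544 (3.11%), 26 of 2746 (0.947%) and 6 of 1854 (0.324%) rose. The last band thus rests on 1 gene beside widened peaks. Over all genes the relation was weak: the Spearman correlation of log2 width ratio with log2 change was 0.0706 (n = 6946) at 4 h, 0.0867 at 20 h, 0.101 in nascent (n = 4920) and 0.0664 in chrRNP RNA (n = 7134), across genes of shared libraries.

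**Figure D5:**
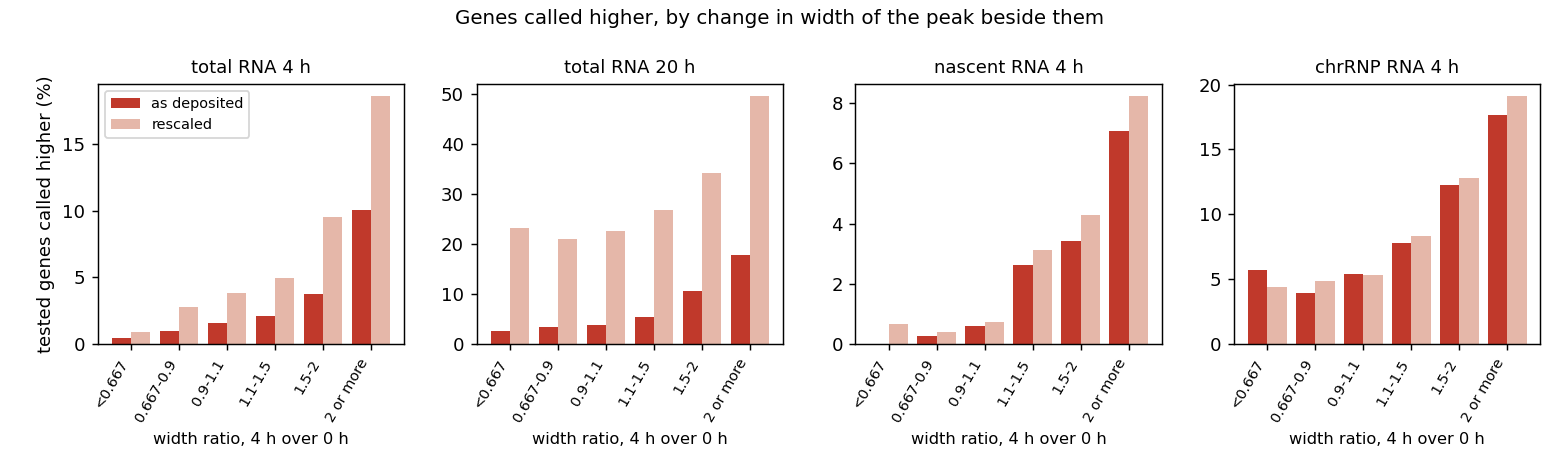
Share of tested genes beside kept peaks called higher (vertical axis, %) by the width ratio of the peak, 4 h over 0 h (6 bins), in 4 comparisons with 0 h, for values as deposited (dark) and rescaled libraries (light); the panels have different vertical scales. In total RNA at 4 h the share as deposited went from 0.446% in the lowest bin to 10.1% in the highest.

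Many genes of naive pluripotency fell beside peaks of little changed width. Of 31 listed, 26 stood beside kept peaks, with a median width ratio of 1.06 over the 22 one-to-one pairs, none of which widened or narrowed by 1.5 times. In total RNA at 4 h 15 of the 26 fell and the others did not pass the test, with a median of -0.49 against -0.31 for all genes, of which 21.2% fell. After rescaling 6 fell, without the first or the second 0 h library 2, without the first 4 h library 3 and without the second 19. At 20 h all 26 tested fell, with a median of -1.85 against -0.76 for all genes, of which 67.8% fell, and 20 fell after rescaling, where 27.8% of all genes did. Klf2, a Kruppel-like factor gene, had a peak of 689 and then 533 bp. Its total RNA was 43.3 and 42.0 FPKM at 0 h, 19.8 and 20.2 at 4 h and 10.8 and 9.91 at 20 h, without overlap (-1.06 ± 0.11 and -1.95, limma adjusted p = 0.00644 and 7.71e-05, and -0.68 and -1.04 after rescaling). Spry4, an FGF feedback inhibitor gene, had 25 and 24.2 FPKM, then 10.6 and 11.2 (-1.1 ± 0.11, adjusted p = 0.00608, and -0.74 after rescaling). Both calls held without each library in turn.

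The kept peak of Nanog lay at the gene's end and was 2212 and then 2362 bp wide. Total RNA of Nanog was 100 and 96.3 FPKM at 0 h, 49.8 and 59.7 at 4 h and 11.1 and 9.63 at 20 h. The change was -0.84 ± 0.14 at 4 h (limma adjusted p = 0.0184) and -3.13 ± 0.14 at 20 h (adjusted p = 7.68e-05). At 4 h the call ended without the first 0 h library (adjusted p = 0.111), without the second or without the first 4 h library, and the adjusted p ranged from 0.0197 to 0.111 over the alternatives. Nr0b1, which encodes the nuclear receptor DAX1, had a peak of 1317 and then 1191 bp and went from 103 and 97.0 FPKM to 77.0 and 79.6 at 4 h and 7.29 and 6.96 at 20 h (-3.63 ± 0.11 at 20 h, adjusted p = 3.39e-05). Pou5f1, the gene of OCT4, had a peak of 557 and then 583 bp, and its 4 h libraries did not pass the test (456 and 430 FPKM at 0 h, 366 and 418 at 4 h, adjusted p = 0.323). At 20 h Pou5f1 was at 144 and 132 FPKM and had fallen (-1.68, adjusted p = 0.000127). Sox2, with 1205 and then 1220 bp, had 154 and 129 FPKM, then 99.0 and 128, then 75.6 and 69.2, and its fall at 20 h (-0.95, adjusted p = 0.00227) was not seen after rescaling (adjusted p = 0.996).

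Signalling genes were among those with large falls at 4 h. Pim1, a LIF and STAT3 target kinase gene, had a peak of 1813 and then 1786 bp and went from 50.1 and 44.4 FPKM to 17.4 and 19.5 at 4 h, with 25 and 27.9 at 20 h (-1.31 ± 0.13 at 4 h, limma adjusted p = 0.00603, and -0.94 after rescaling). Lefty1, a Nodal inhibitor gene, went from 17.1 and 14.4 to 4.08 and 6.10 FPKM (-1.47 ± 0.18, adjusted p = 0.0101, and -1.12 after rescaling), a call that ended without the filter on low values (adjusted p = 0.0546, the highest of a range from 0.00843). Zfp710, a zinc finger gene, went from 21.8 and 22.0 to 8.24 and 9.71 FPKM (-1.20 ± 0.12, adjusted p = 0.0064, and -0.84 after rescaling). Of 12 genes of core pluripotency and Nodal signalling beside kept peaks, 11 fell at 20 h and Nodal rose, where 67.8% and 9.47% of all genes did, and after rescaling 7 fell and 3 rose. At 4 h 8 fell and Nodal rose, where 21.2% and 4.47% of all genes did, and without each library in turn 1 to 9 fell.

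A large fall at 20 h came beside a peak of steady width at 4 h. Inhbb, the gene of the activin beta B subunit, had a peak of 1637 bp (chr1:119421375-119423012) and then 1622 bp. Its total RNA was 18.6 and 17.8 FPKM at 0 h, 11.5 and 15.7 at 4 h and 0.706 and 1.05 at 20 h (-3.36 ± 0.17, limma adjusted p = 7.68e-05, and -2.70 after rescaling). In the other direction, a peak of 1018 and then 1067 bp lay 2942 to 1875 bp before the start of Man2b1 at 4 h. Man2b1 encodes lysosomal alpha-mannosidase. It was at 6.07 and 6.57 FPKM at 0 h and 7.61 and 7.92 at 4 h (adjusted p = 0.116) and rose to 55.1 and 50 at 20 h (2.87 ± 0.11, adjusted p = 7.05e-05). Ppp1r14a, which encodes an inhibitor of myosin phosphatase, went from 1.17 and 1.09 to 4.74 and 4.64 at 4 h and 10.6 and 11.7 FPKM at 20 h (1.42 ± 0.11 and 2.51 ± 0.11, adjusted p = 0.00279 and 7.68e-05). These 20 h calls held without each library in turn and after rescaling.

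Among the enzymes and readers of H3K27 acetylation, 22 of 25 genes stood beside kept peaks, with a median width ratio of 0.998. In total RNA at 4 h 8 of the 22 fell (Kat2b, Kat6a, Kat7, Brd2, Brd8, Sirt1, Ncor1 and Sin3a) and the others did not pass the test, where 21.2% of all genes fell. After rescaling 3 fell, and without the second 4 h library 14. Calls on this list ended without the first or second 0 h library or the first 4 h library (fits that called 10, 44 and 101 falls beside kept peaks). Ep300, the gene of p300, had a peak of 1806 and then 1926 bp and was at 11.6 and 11.4 FPKM at 0 h, 8.04 and 8.57 at 4 h and 6.28 and 7.63 at 20 h (-0.42 ± 0.13 at 4 h, adjusted p = 0.0512). At 20 h 20 of the 22 fell, where 67.8% of all genes did, and after rescaling 7 fell and 5 rose, where 27.8% and 27.5% did.

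Of the genes of the RNA exosome and nuclear RNA decay, 27 of 28 stood beside kept peaks. The peak of Exosc2 was 956 bp at 0 h (chr2:31670516-31671472) and 1052 bp at 4 h. Its RNA does not check the depletion, since the degron acts on the protein. Total RNA of Exosc2 was 3.75 and 2.74 FPKM at 0 h, 2.64 and 2.17 at 4 h (-0.31 ± 0.16, limma adjusted p = 0.166) and 1.04 and 0.938 at 20 h (-1.08 ± 0.16, adjusted p = 0.000991, and -0.48 with 0.0513 after rescaling). At 20 h 25 of the 27 fell and Exosc6 and Zfc3h1 rose, where 67.8% and 9.47% of all genes did, and after rescaling 12 fell and 6 rose, where 27.8% and 27.5% did. Exosc6 was listed near 0 in both 0 h libraries and at 8.83 and 2.28 FPKM at 4 h, and the rise called at 4 h (2.5 ± 0.46, adjusted p = 0.0215) ended without either 0 h library and after rescaling.

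Genes of growth and division lost RNA at 20 h beside kept peaks. At 20 h 37 of 37 cell cycle genes fell (33 after rescaling), 32 of 33 ribosome biogenesis genes (31), 52 of 56 tested ribosomal protein genes (37), 40 of 41 splicing factor genes (22) and 32 of 36 genes of RNA polymerase II and its elongation factors (13). The share of all genes that fell at 20 h was 67.8%, and after rescaling 27.8%. As deposited, falls at 20 h were more frequent at higher 0 h levels. Beside kept peaks 56.9% fell at 1 to 5 FPKM, 83.7% at 5 to 20, 94.2% at 20 to 100 and 95.7% at 100 or more. The lists here and above were not matched for level. Median width ratios of these groups, in the same order, were 1.11, 1.06, 1.06, 1.02 and 1.04. At 4 h 15, 19, 5, 10 and 8 of these genes fell, where 21.2% of all genes did. That share was above the one of all genes for the first 2 groups, below it for the third and near it for the last 2. Without the second 4 h library the numbers were 30, 31, 14, 29 and 22, and without the first 0 h library at most 1 of each group. Ribosomal protein genes have many processed copies, so the counting of their reads is uncertain. Of 38 replication-dependent histone genes beside kept peaks, 33 of 36 tested fell at 20 h and Hist2h2be rose (19 and 4 after rescaling). Hist1h4i, with 222 and 204 FPKM at 0 h, 390 and 435 at 4 h and 285 and 238 at 20 h, rose at 4 h (0.95 ± 0.15, limma adjusted p = 0.0172), a call that ended without the first 0 h library (0.0972, the highest of a range from 0.00253).

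Immediate-early genes, which respond to growth factors and stress quickly, moved in both directions. Of 27 listed, 18 stood beside kept peaks, of which 4 widened and 1 narrowed by at least 1.5 times. The median width ratio was 0.929 over the 17 one-to-one pairs. At 4 h 9 of 17 tested fell, where 21.2% of all genes did (Jund, Ier3, Dusp1, Dusp6, Klf6, Klf10, Ctgf, Myc and Zfp36), 5 after rescaling, at most 1 without either 0 h library and 3 without the first 4 h library. At 20 h 8 rose (Fos, Jun, Junb, Egr1, Dusp1, Klf6, Ctgf and Nr4a1) and 5 fell (Ier2, Ier3, Dusp6, Klf10 and Myc), where 9.47% and 67.8% of all genes did. After rescaling 13 rose and 3 fell, where 27.5% and 27.8% of all genes did. Dusp1, which encodes a MAP kinase phosphatase, had a peak of 1401 and then 1515 bp. Its total RNA was 9.64 and 10.4 FPKM at 0 h, 4.77 and 5.36 at 4 h and 22.5 and 21.2 at 20 h. The libraries of the 3 times did not overlap (-0.86 ± 0.11, limma adjusted p = 0.0121, and 1.05 ± 0.11, adjusted p = 0.000293), and the 4 h call ended without the first 0 h library (adjusted p = 0.0623, the highest of a range from 0.0119) and without the second. Nr4a1, whose peak widened at 4 h, had 16.6 and 14.3 FPKM at 20 h (0.46 ± 0.14, adjusted p = 0.0229), and the range over the alternatives was 0.000333 to 0.152, the highest without the second 0 h library, while the call also ended without the first 20 h library.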

How the data were processed

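H3K27ac peaks are positions on mm10, deposited by the authors as lists; the submitters' processing notes name Bowtie2 2.2.6, MACS2 and bedtools for them. The sources used here do not say whether replicates were pooled. Total and chrRNP values are FPKM as deposited by the authors, whose processing notes name TopHat2 2.0.11 and Cufflinks 2.0.2. Nascent values are RPKM as deposited, and the notes name Trim Galore, bedtools and TopHat2 and the builds mm10 and dm6. They implied 5354343 to 11298863 reads per library; the depth of the other libraries is unknown. Spike-ins were added per the labels, but the sources used here state neither a spike-in factor nor the strand used in counting, so reads of overlapping or antisense genes cannot be told apart.

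The members and gene lists were chosen with earlier results of these data known. Genes of at least 1 FPKM or RPKM in at least 2 libraries of a table (6 total, 8 nascent, 16 subcellular) were fitted as log2(value + 1) with limma 3.58.1 (trend) under R 4.3.3 (tables read by data.table, version 1.17.8), with Benjamini-Hochberg adjustment and a threshold of 0.05. Errors are SE of the fit. Width and RNA shares, p53 half-site matches and noncoding neighbours were added after the data were seen. Alternatives were rescaled libraries, no filter, no trend, a pseudocount of 0.1, a replicate block, leaving out each library, windows of 1 and 5 kb, gene ends inside the peak, 50% overlap, summed widths, a ratio of 2 and peaks of at least 1000 bp. Named genes were the 6 largest rises and falls per comparison among called genes with separate libraries and a mean of at least 5, genes beside the 6 most widened, most narrowed and broadest peaks, 4 members per list with the smallest p, and 12 fixed genes; clones were passed over and a part is printed. The scripts (Python 3.11.15, numpy 2.4.6, pandas 2.3.3, scipy 1.17.1, matplotlib 3.10.9) were tested on simulated data.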

Additional observations from a re-analysis of the deposited data

Results flagged for a closer look

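Ctgf and Dusp1, immediate-early genes beside kept peaks, moved in opposite directions at 4 h and 20 h of IAA in total RNA, in both libraries of each time. Ctgf, which encodes a secreted growth factor of the CCN family, changed by -0.87 at 4 h and 0.48 at 20 h against the same 0 h libraries, a difference of 1.35 on the log2 scale between 20 h and 4 h (limma adjusted p = 0.000465). Its FPKM were 15.1 and 12.9 at 0 h, 7.01 and 7.38 at 4 h and 19.1 and 20.7 at 20 h. Dusp1 changed by -0.86 and 1.05, a difference of 1.91 (adjusted p = 0.00023). Klf6, of the same list but outside the rule for named genes, also fell at 4 h (-0.78, adjusted p = 0.0182) and rose at 20 h (1.16, adjusted p = 0.000308). The 4 h falls were less stable, since the call on Dusp1 ended without either 0 h library, as did most 4 h falls of this list. The peaks beside Ctgf and Dusp1 were 1688 and 1401 bp wide at 0 h and 1568 and 1515 bp at 4 h.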

How the results depend on the processing

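The number of genes beside kept peaks called in total RNA at 4 h (139 higher and 1924 lower) was 23 and 33 without the filter on low values, 84 and 515 with the replicate block, and 326 and 201 in rescaled libraries. Leaving out each library gave 28 to 108 higher and 10 to 3457 lower, and genes with an end inside the peak gave 90 higher. At 20 h (348 and 5676) rescaling gave 1784 and 2314, and genes with an end inside the peak 205 higher. In nascent RNA (70 and 17) the filter's absence gave 27 and 3, no trend 11 lower, the replicate block 2 and 0, and each library left out 1 and 0 (limma; 966 genes at an unadjusted p of 0.05 in the full fit). In chrRNP (477 and 44) no filter gave 26 lower, rescaling 738 lower, genes with an end inside the peak 26 lower, and each library left out 194 to 3525 higher and 11 to 71 lower. Widened and narrowed peaks (523 and 236) were 152 and 57 at a ratio of 2. Among the 5031 members of at least 1000 bp at 0 h, with 4794 one-to-one pairs, 142 widened and 191 narrowed. Narrowing outnumbered widening there, but a choice by 0 h width alone tilts the count that way in advance. Rescaling reversed the 20 h change of Brd2 (0.39), Crebzf (0.46), Id1 (0.58), Id3 (0.45), Il17rd (0.27), Jmjd6 (0.53) and Nop53 (0.37). The cause was not tested. Of the other single results under the alternatives, 3392 kept their direction and side of the threshold, 447 lost the call, 98 gained it and 2 moved by more than the spread. The labels do not say whether same-numbered libraries pair. The correlations of their deviations were low, -0.026 and 0.145 in total RNA at 4 and 20 h, 0.018 in nascent and 0.082 in chrRNP RNA. In chrRNP the replicate block gave 560 higher, more than the 477 without it. Whether a call lost with the block marks a weaker effect was not tested. Depth limits are unknown for peaks and for FPKM tables.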

Other observations

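Noncoding genes within 2 kb of kept peaks, looked at after the data were seen, had a different pattern from the coding ones. Of 1646 such genes 419 passed the filter in total RNA at 4 h, and 194 of them rose (46.3%) and 15 fell, with a median change of 0.75. Among 1682 other noncoding genes that passed, 138 rose and 143 fell, and of all genes 4.47% rose and 21.2% fell. The gene types differed, with 16 processed pseudogenes beside kept peaks and 914 elsewhere. Within a type the gap varied. Beside kept peaks and elsewhere, 59.05 and 38.5% of antisense RNAs rose, and 58.5 and 28.7% of long intergenic RNAs. For bidirectional promoter RNAs it was 87.0% of 23 and 100% of 4, and for unconfirmed transcripts 64.1 and 8.88%. A gene that passed the filter only where it is high had to differ. With a 0 h mean of at least 1 FPKM, 47 of 198 beside kept peaks rose (23.7%, with a median change of -0.08) and 46 of 1393 others (3.30%, median -0.26), and in chrRNP 65 of 276 (23.6%) and 78 of 1602 (4.87%). Reads of a noncoding gene and an overlapping coding gene cannot be told apart here.

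Neat1, the architectural RNA of paraspeckles, was at 50.2 and 42.5 FPKM at 0 h, 116 and 125 at 4 h and 247 and 271 at 20 h in total RNA. It rose at both times (1.36 ± 0.14 and 2.46, limma adjusted p = 0.00633 and 7.71e-05), and in chrRNP it went from 68.0 and 72.1 to 467 and 460 FPKM (2.71 ± 0.19, adjusted p = 1.14e-05). The snoRNA host genes Snhg4 and Snhg3 rose at 4 h and were not called at 20 h as deposited, while after rescaling both were still higher at 20 h (0.96 and 0.62, limma adjusted p = 0.000498 and 0.000909). Snhg4 went from 18.2 and 19.6 to 56.6 and 64.6 and then to 19.5 and 19.5 FPKM (1.63 ± 0.12 at 4 h, adjusted p = 0.00202). Snhg3 went from 32.4 and 28.3 to 70.4 and 77.5 and then to 24.3 and 24.1 FPKM (1.26 ± 0.12, adjusted p = 0.00603). Snhg12, another host gene, went down, from 88.9 and 81.8 to 36.8 and 47.2 and then 20.0 and 19.3 FPKM (-1.01 at 4 h, adjusted p = 0.0146), a call that ended without the filter and without either 0 h library (adjusted p up to 0.0877). These names were chosen after their values were seen.

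Promoter motifs were also counted beside kept peaks at starts that widened or narrowed by 1.5 times. CCAAT was in 48.4% of 374 promoters beside widened peaks, 43.2% of 190 beside narrowed ones and 39.7% of all 5921, and GGGCGG in 71.4, 79.5 and 68.5%. The p53 half-site, searched on both strands after the data were seen, was in 11 of 95 promoters of genes that rose in total RNA at 4 h (11.6%), in 6.38% of the 5921 and in 8.36% of all promoters of the table.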
